A study of Mus musculus with 6 samples.

Results

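The genes described here are 10 genes of cholesterol efflux under the liver X receptors (LXRs): the receptors Nr1h3 and Nr1h2, the lipoprotein genes Apoe, Apoc1 and Pltp, the transporters Abca1 and Abcg1, and Mylip, Lpcat3 and Soat1, which encode a ubiquitin ligase, a phospholipid acyltransferase and the enzyme that esterifies cholesterol. They were taken from the deposited table by gene symbol alone. All 10 were found among its 60832 genes, and all 10 were among the 15474 that passed the filter on low counts. The libraries were made from mouse liver sinusoidal endothelial cells (LSECs), the lining of the hepatic capillaries. In the study's methods LSECs were isolated with anti-CD146 beads from digested liver metastatic tissue, here of the human colorectal cancer line HCT116. Of the 6 libraries, 3 came from HCT116 CRCLM (colorectal cancer liver metastasis) xenografts that were sensitive to bevacizumab and 3 from resistant ones, and all cells were cultured for 24 h, according to the labels. In the study's methods the tumour cells were placed in a liver lobe of BALB/c nude mice, all male, which lack mature T cells but keep macrophages and neutrophils. Resistance was acquired by injecting bevacizumab, an antibody against vascular endothelial growth factor A, over weeks, whereas the vehicle mice received IgG. The labels do not state whether a library is of 1 mouse or of pooled mice, so the p-values measure the spread between these libraries, which may in part be technical. The comparison asks whether prolonged bevacizumab treatment changes the endothelial cells of sinusoids that the tumour has taken over as its own supply.

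LXRs are nuclear receptors that bind oxysterols, which are oxidised forms of cholesterol, and act on DNA as partners of the retinoid X receptors. When cholesterol accumulates in a cell, they raise the genes of its removal: ABCA1 passes cholesterol and phospholipid to lipid-poor apolipoproteins, ABCG1 passes cholesterol to larger particles, and apolipoprotein E carries it away. In the liver, macrophages and Kupffer cells use this route to shed the cholesterol of the cells and lipoproteins they take up, and hepatocytes secrete apolipoprotein E into plasma.

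The proximal promoters of Abca1 and Mylip are shown because these LXR targets kept the most constant ratio to each other across the libraries, and that of Apoe because it was the most abundant transcript per length. Each is the stretch of 250 bases before the start of the gene on GRCm38.p6, from RefSeq's promoter windows, written in the direction of transcription. They lie at chr4:53159896-53160145 on the minus strand for Abca1, chr13:45389492-45389741 on the plus strand for Mylip and chr7:19699189-19699438 on the minus strand for Apoe. Capitals mark a match to TATAAA or to a DR4, the direct repeat of a nuclear receptor half-site that LXRs bind with their RXR partner, on either strand.
Abca1: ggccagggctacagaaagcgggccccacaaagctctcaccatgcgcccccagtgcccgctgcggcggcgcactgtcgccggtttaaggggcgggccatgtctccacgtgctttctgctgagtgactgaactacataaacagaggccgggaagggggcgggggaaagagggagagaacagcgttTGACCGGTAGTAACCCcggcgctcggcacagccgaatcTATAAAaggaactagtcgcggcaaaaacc
Mylip: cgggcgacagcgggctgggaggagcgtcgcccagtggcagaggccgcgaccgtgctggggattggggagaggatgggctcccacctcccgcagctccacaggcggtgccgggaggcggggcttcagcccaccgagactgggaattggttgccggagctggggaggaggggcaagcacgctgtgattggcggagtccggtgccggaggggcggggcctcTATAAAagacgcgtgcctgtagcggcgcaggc
Apoe: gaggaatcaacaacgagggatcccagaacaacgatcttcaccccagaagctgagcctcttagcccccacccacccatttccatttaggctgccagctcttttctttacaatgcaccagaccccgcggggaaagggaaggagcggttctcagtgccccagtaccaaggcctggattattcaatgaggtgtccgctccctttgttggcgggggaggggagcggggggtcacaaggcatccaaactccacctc

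Abca1 was the 1 gene of the 8 with a window in the table (Apoe, Abca1, Nr1h3, Nr1h2, Mylip, Pltp, Lpcat3 and Soat1) whose promoter held a DR4 match. The match, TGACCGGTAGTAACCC, lies 67 to 52 bases before the start and reads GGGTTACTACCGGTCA on the opposite strand. A DR4 match occurred in 236 of all 32851 promoter windows of 300 bases, or 0.718%. Among the 67 genes of these pathways with a window, Fasn and Srebf1 also held one. TATAAA, which was in 13.6% of all windows, stood before the start of both Abca1 and Mylip and does not overlap the DR4 match. A match is a description of these letters, and its absence from such a short window leaves other sites of a gene unread.

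Total counts were between 17599326 and 20726684 per library, and levels are given as CPM, the count over the library's total after adjustment by TMM factors. A count of 3, taken as the floor and covering counting error only, equals 0.145 to 0.170 CPM. Levels of different genes were compared as the deposited FPKM, which divides the count by the library total and the length of the gene. Sensitive replicate 2 stood apart from the other libraries, with Pearson's r across genes between 0.860 and 0.901 in its pairs and between 0.954 and 0.974 in the others. For the efflux genes, log2 fold changes below are given with and without it where it changes the reading. For the related genes described after them, they are given with all libraries only and may rest on it. The labelled cell type was poorly represented: the median FPKM of 14 LSEC markers was between 0.514 and 2.18 and that of 16 pan-endothelial markers between 0.270 and 2.88, against 118 to 266 for 18 macrophage and Kupffer cell markers. Counts of Mcam, the gene of CD146, were between 6 and 79, whereas Clec4f, a Kupffer cell lectin, had between 34593 and 85790. These were extremes: the endothelial genes Pecam1, Cdh5 and Stab2 had 175 to 1889, 356 to 4494 and 576 to 2936. The macrophage gene Adgre1 had 2159 to 11196. The highest of the endothelial lists, Stab1 and Cdh5, had means of 56.6 and 36.6 FPKM. The summed CPM of the pan-endothelial markers was 85.1 in resistant replicate 2 and between 347 and 546 in the others. In these bulk libraries, fewer cells of a type and less RNA per cell cannot be told apart.

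Per length, the efflux genes fell into a steep order. Apoe had a mean of 8803 FPKM over the 6 libraries and ranked 1 of the 15474 tested genes, 33.1 times above Apoc1 at 265.6. Apoc1 lay above the next gene, Pltp (84.6 FPKM), in 6 of 6 libraries, and Pltp above Soat1 (62.6 FPKM) in 5 of 6. Below them, Nr1h3, Nr1h2, Abcg1, Abca1 and Mylip had means between 26.8 and 36.6 FPKM and overlapped, with neighbours in the order trading places in 1 to 3 of the 6 libraries. Lpcat3 was the lowest, with 19.1 FPKM, and still above 82.4% of the tested genes.

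Apoe, the apolipoprotein that carries effluxed cholesterol, is on chromosome 7 (19696109 to 19699188, minus strand, GRCm38). It had 9932, 45073 and 17108 CPM in sensitive replicates 1, 2 and 3 and 12086, 17456 and 15600 CPM in the resistant ones. Sensitive replicate 2 held by far the highest value and sensitive replicate 1 the lowest, so every resistant library lay inside the sensitive range. In sensitive replicate 2, Apoe took 3.95% of all counts and was the gene with the most reads, whereas in the other libraries it took 1.06% to 1.72% and ranked 3 or 4. The means were 24038 ± 18567 (SD, n = 3) in the sensitive and 15048 ± 2728 CPM (SD, n = 3) in the resistant group. The log2 fold change was -0.68 (SE 0.55) and its sign rested on that library: without it the value was 0.15 (SE 0.32). The summed CPM of the macrophage markers was also highest there, at 34970, but it was 32435 in sensitive replicate 3, where Apoe was 17108 CPM. The summed CPM of 15 hepatocyte markers was between 237 and 532, and Alb itself was between 18.1 and 88.4 CPM. What part these cells have in the Apoe level was not tested.

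Apoc1 encodes a small apolipoprotein of the same gene cluster, on chromosome 7 (19689481 to 19692660, minus strand). Its levels were 174, 407 and 234 CPM in sensitive replicates 1, 2 and 3 and 169, 141 and 90.9 CPM in the resistant ones. The groups did not overlap, although the lowest sensitive and the highest resistant library were close. Its log2 fold change of -1.02 (SE 0.38) did not pass (adjusted p = 0.940, edgeR). Without sensitive replicate 2 it was -0.62 (SE 0.28), again lower in the resistant group.

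Apoe and Apoc1 lie next to each other but did not keep a fixed ratio. Apoe exceeded Apoc1 in FPKM by 19.8, 38.6 and 25.5 times in sensitive replicates 1, 2 and 3 and by 24.8, 43.0 and 59.7 times in the resistant ones. The log2 difference of the ratio between the groups was 0.57 (exact permutation test, two-sided, p = 0.3, where the smallest p-value for 3 libraries against 3 is 0.1). The ratio was thus highest in resistant replicate 3, in which Apoc1 was lowest and Apoe was near the middle.

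Pltp encodes the phospholipid transfer protein, which moves phospholipid between lipoproteins, and is on chromosome 2 (164839518 to 164857711, minus strand). It had 229, 229 and 282 CPM in the sensitive and 214, 142 and 206 CPM in the resistant replicates 1, 2 and 3. All resistant libraries were below all sensitive ones, and this order did not rest on sensitive replicate 2, which lay at the level of replicate 1. The log2 fold change was -0.40 (SE 0.23, adjusted p = 0.940, edgeR) and stayed between -0.50 and -0.22 over every alternative and every library left out. Its exons share 495 bases with Ctsa on the opposite strand, and as the labelled kit does not mark strand, reads there cannot be assigned to either gene.

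**Figure D1:**
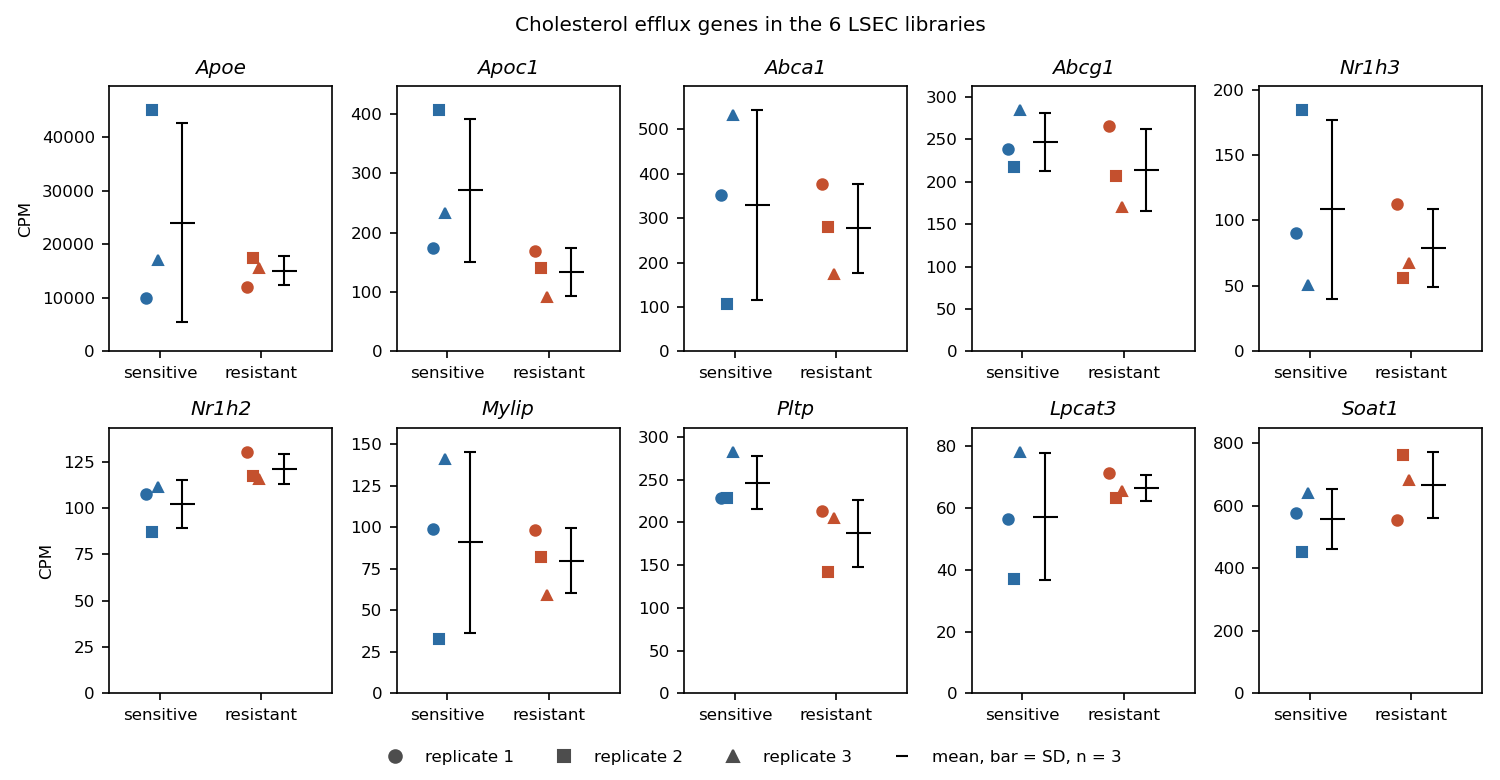
CPM (linear axes from 0, a different range for each gene) of the 10 efflux genes in the 3 sensitive and 3 resistant libraries, with symbols for the replicate number and the group mean with its SD beside them. Sensitive replicate 2 is the highest library for Apoe, Apoc1 and Nr1h3 and the lowest for Abca1, Mylip, Nr1h2, Lpcat3 and Soat1, and only Apoc1, Pltp and Nr1h2 have groups that do not overlap.

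Abca1, the transporter for lipid-poor apolipoproteins, is on chromosome 4 (53030787 to 53159895, minus strand). It varied more among the libraries than any other efflux gene, 5.01-fold, with 352, 106 and 531 CPM in sensitive replicates 1, 2 and 3 and 376, 281 and 175 CPM in the resistant ones. The highest and the lowest library were both sensitive. The means were 330 ± 213 CPM (SD, n = 3) in the sensitive and 277 ± 100.3 CPM (SD, n = 3) in the resistant group. In the comparison its log2 fold change was -0.25 (SE 0.56). Without sensitive replicate 2 it was -0.68 (SE 0.35), and without sensitive replicate 3 it was 0.28.

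Abcg1, which exports cholesterol to larger lipoproteins, is on chromosome 17 (31057675 to 31117988, plus strand). It was steadier, with 239, 217 and 284 CPM in the sensitive and 265, 207 and 170 CPM in the resistant replicates 1, 2 and 3. The range over all 6 libraries was 1.67-fold and the log2 fold change -0.21 (SE 0.24). Leaving out 1 library moved it to between -0.38 (without resistant replicate 1) and -0.055 (without resistant replicate 3), and scaling to the macrophage markers gave -0.042. In sensitive replicate 2 Abca1 was 0.489 times Abcg1 in CPM, whereas in the other 5 libraries it was between 1.03 and 1.87 times Abcg1.

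The receptors behaved differently from each other. Nr1h3, which encodes LXRα (chromosome 2, 91184061 to 91202834, minus strand), had 90.6, 184 and 50.7 CPM in sensitive replicates 1, 2 and 3 and 112, 55.9 and 67.8 CPM in the resistant ones. Sensitive replicate 2 was again the highest, and the log2 fold change of -0.46 (SE 0.49) became 0.15 (SE 0.38) without it. Nr1h2, which encodes the widely expressed LXRβ (chromosome 7, 44549616 to 44553951, minus strand), had 108, 87.2 and 111 CPM in the sensitive and 130, 117 and 116 CPM in the resistant replicates. It varied least of the efflux genes, 1.49-fold, and every resistant library lay above every sensitive one. The log2 fold change was 0.25 (SE 0.19, adjusted p = 0.940, edgeR) and 0.14 (SE 0.11) without sensitive replicate 2.

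Per length, the receptors were at similar levels, with 36.6 FPKM for Nr1h3 and 33.4 for Nr1h2 over the 6 libraries. The ratio of Nr1h3 to Nr1h2 in FPKM was 1.12, 2.82 and 0.607 in sensitive replicates 1, 2 and 3 and 1.15, 0.637 and 0.782 in the resistant ones, so either receptor was the more abundant in 3 of the 6. The log2 difference between the groups was -0.58 (exact permutation test, two-sided, p = 0.7) and 0.01 without sensitive replicate 2. Nr1h3 shares 34 exon bases with Gm13783 on the same strand.

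Mylip encodes the ubiquitin ligase IDOL, which LXRs raise and which marks the LDL receptor for degradation. It is on chromosome 13 (45389742 to 45412022, plus strand) and had 98.9, 33.0 and 141 CPM in sensitive replicates 1, 2 and 3 and 98.2, 82.3 and 59.5 CPM in the resistant ones. As with Abca1, the highest and lowest libraries were sensitive replicates 3 and 2. Its log2 fold change was -0.18 (SE 0.49). Without sensitive replicate 2 it was -0.59 (SE 0.25, adjusted p = 0.984, edgeR), and without sensitive replicate 3 it was 0.28.

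Abca1 and Mylip kept a near constant ratio from library to library. Abca1 was 3.56, 3.22 and 3.77 times Mylip in CPM in sensitive replicates 1, 2 and 3 and 3.82, 3.42 and 2.94 times in the resistant ones. This ratio spanned 1.30-fold, where the levels of the genes themselves spanned 5.01-fold and 4.27-fold, and it was the narrowest of the 45 pairs of efflux genes. The next narrowest, Nr1h2 to Soat1, spanned 1.53-fold. Of 14457 other tested genes with counts in every library, Mylip was the 1 gene whose ratio to Abca1 spanned so little, and without sensitive replicate 2 it was among 6 that did. The length trend of sensitive replicate 2, described below, was not removed from these ratios. In that library Abca1 and Mylip differed from the mean of the other 5 by -1.60 and -1.48 log2 units. With the trend removed these differences were -0.96 and -1.55, so the match in that library rests on the values as measured. The constant ratio was noticed after the values were seen, the points share library and depth, and no test was made.

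Without sensitive replicate 2, Apoc1 and Abcg1 ordered the libraries much as Abca1 and Mylip did. Abca1, Mylip, Apoc1 and Abcg1 were each highest in sensitive replicate 3, then lay close together in sensitive replicate 1 and resistant replicate 1, and were lower in resistant replicate 2 and lowest in resistant replicate 3. Over these 5 libraries the ratio of Apoc1 to Mylip spanned 1.15-fold and that of Apoc1 to Abca1 1.18-fold. Those with Abcg1 were wider, 1.41-fold for Mylip, 1.54-fold for Apoc1 and 1.81-fold for Abca1, where Nr1h2 to Soat1 spanned 1.53-fold and Apoe to Soat1 1.55-fold. This order, chosen from the efflux genes' own values, was held by 4 of the 10 and by 2.84% of all tested genes. Of the 10 tested genes on a list of other LXR targets, Scd1, a fatty acid desaturase, had it, with 157 and 351 CPM in sensitive replicates 1 and 3 and 275, 60.8 and 48.9 CPM in the resistant replicates. The most abundant genes of that list, Cd5l and Smpdl3a, did not.

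**Figure D2:**
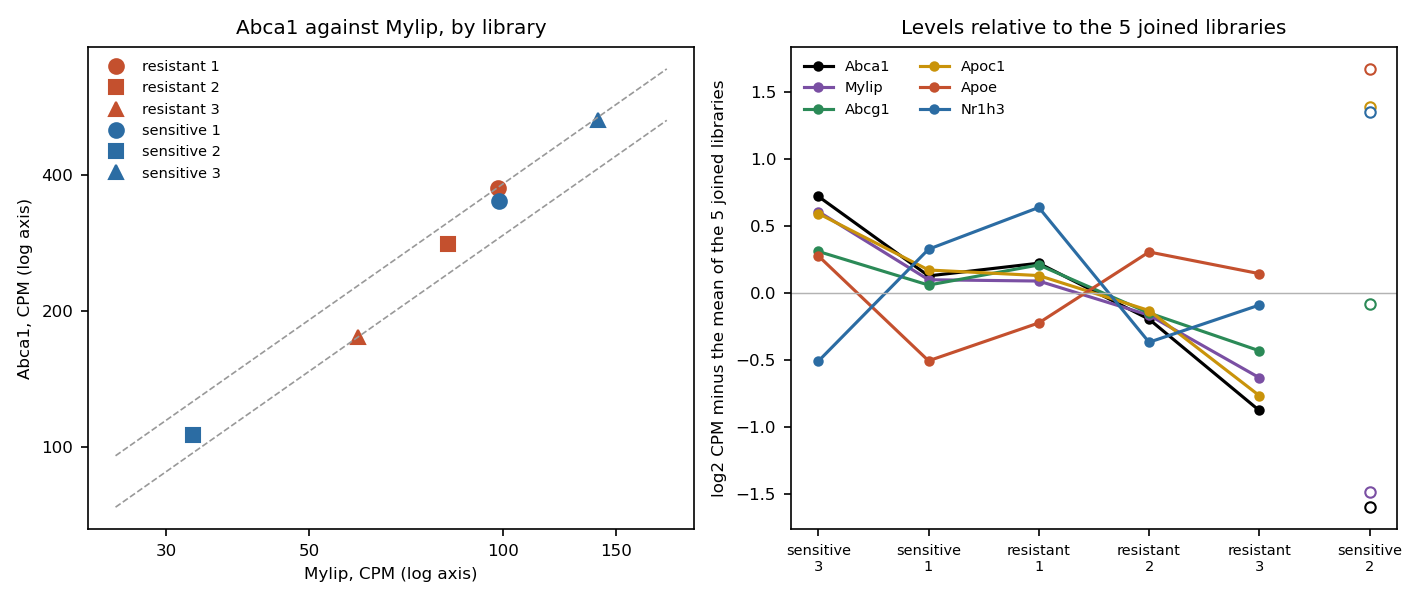
Left, CPM of Abca1 against Mylip in the 6 libraries on log axes, with dashed lines at the lowest and highest ratio (2.94 and 3.82); all libraries of both groups lie in this narrow band. Right, log2 CPM of 6 efflux genes minus their mean over the 5 joined libraries, in which Abca1, Mylip, Apoc1 and Abcg1 share their highest and lowest library while Apoe and Nr1h3 do not; open circles show sensitive replicate 2, where Apoe, Apoc1 and Nr1h3 are high, Abca1 and Mylip low, and Abcg1 close to 0.

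Lpcat3 encodes a phospholipid acyltransferase that LXRs raise and that puts polyunsaturated chains into membranes. It is on chromosome 6 (124663027 to 124704418, plus strand) and had 56.4, 37.0 and 78.1 CPM in the sensitive and 71.3, 63.1 and 65.5 CPM in the resistant replicates 1, 2 and 3. The resistant libraries all fell inside the sensitive range, and the log2 fold change was 0.22 (SE 0.29), or -0.02 (SE 0.16) without sensitive replicate 2. Its exons share 334 bases with Emg1 on the opposite strand, with the same limit as for Pltp.

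Soat1 encodes the enzyme that esterifies cholesterol for storage in droplets, which holds it back from efflux. It is on chromosome 1 (156424525 to 156474331, minus strand) and had 578, 451 and 641 CPM in the sensitive and 554, 762 and 681 CPM in the resistant replicates. The highest levels were in resistant replicates 2 and 3, but resistant replicate 1 was below 2 of the sensitive libraries. Its difference on the log2 scale was 0.26 (SE 0.24), and 0.12 (SE 0.18) without sensitive replicate 2.

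The departure of sensitive replicate 2 was related to gene length. Against the mean of the other 5 libraries, its median log2 difference was 0.70 for genes under 1000 bases of exon and -0.68 for those of 8000 bases or more, with the classes in between in order. Abca1, with 10363 bases, differed by -1.60 log2 units from the other libraries and Apoc1, with 744 bases, by 1.39. With the trend removed, the difference from the other libraries was 1.34 log2 units for Apoe, 1.12 for Nr1h3, 0.72 for Apoc1 and 0.37 for Abcg1, and 0.10 for Soat1 and -0.09 for Pltp. It was -0.45 for Nr1h2, -0.90 for Lpcat3, -0.96 for Abca1 and -1.55 for Mylip, a gene of 3233 bases. Among all tested genes these values lay between the percentiles 11.6 (Mylip) and 90.9 (Apoe). Neutrophil markers were also highest in this library, with a summed CPM of 7907 over 11 genes against 326 to 4927 in the others, and their part in these values was not tested.

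**Figure D3:**
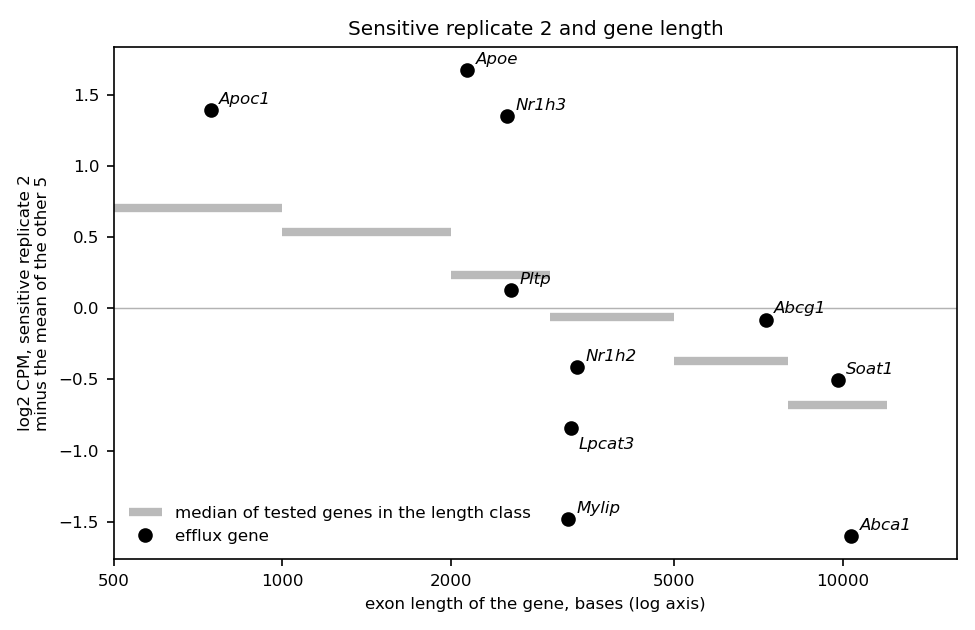
Log2 CPM of sensitive replicate 2 minus the mean of the other 5 libraries for each efflux gene, against its exon length in bases (log axis), with the median of the tested genes of each length class as a grey bar. The medians fall from 0.70 to -0.68 with length. Apoe, Nr1h3, Apoc1 and Abcg1 lie above the bar of their class and Abca1, Mylip, Lpcat3 and Nr1h2 below, while Soat1 and Pltp lie near theirs.

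Between the groups, 0 of the 10 efflux genes passed an adjusted threshold of 0.05 in the quasi-likelihood test of edgeR, where 0 of all 15474 tested genes (0%) did. Before adjustment 1 efflux gene, Apoc1, passed it (unadjusted value 0.0307), being lower in the resistant group. Of all tested genes, 3.08% passed before adjustment, 2.54% being lower and 0.536% higher. With the Wald test of DESeq2, 0 efflux genes passed after adjustment, where 0.155% of all tested genes did, and 1 before, where 4.73% did. The groups did not overlap for Apoc1 and Pltp, which were lower in the resistant group, and for Nr1h2, which was higher. Of all tested genes, 4.38% were lower without overlap and 4.64% higher, 9.02% together. The log2 fold change was below 0 for 7 of the 10 efflux genes and above 0 for Nr1h2, Lpcat3 and Soat1. Of all 15474 tested genes, 7619 were below 0. The median was -0.23 for the efflux genes against 0.01 for all tested genes. Leaving out sensitive replicate 2 turned the sign of 3 of the 10, Apoe, Nr1h3 and Lpcat3, where it turned 32.7% of all tested genes.

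**Figure D4:**
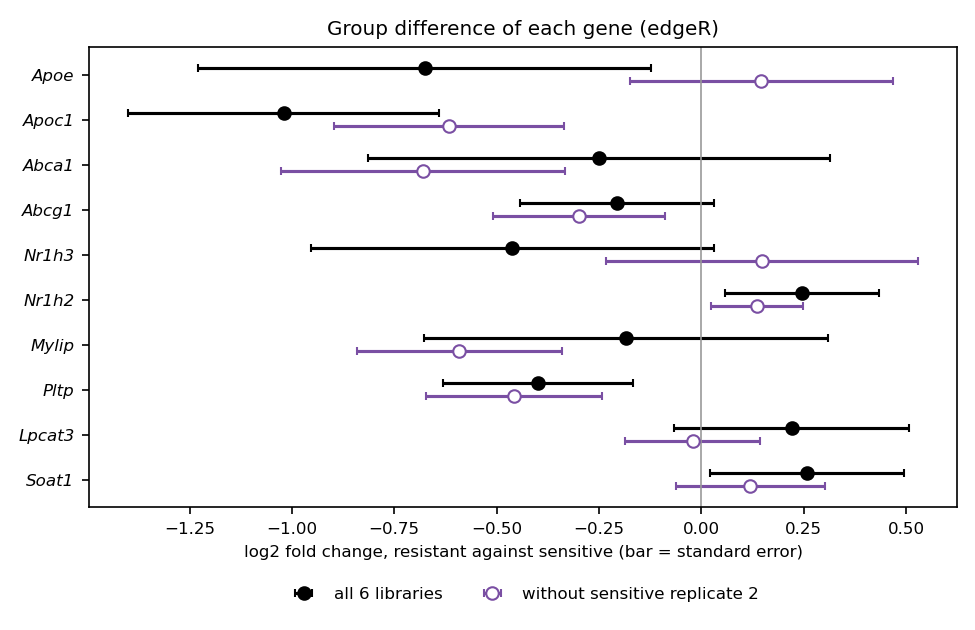
Log2 fold change of each efflux gene in the resistant against the sensitive group from edgeR, with its standard error as a bar, over all 6 libraries (filled) and without sensitive replicate 2 (open). Apoe and Nr1h3 lie below 0 with all libraries and above 0 without that replicate, Abca1 and Mylip move further below 0, and Pltp and Nr1h2 stay on the same side of 0.

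Rxra and Rxrb, partners of the receptors, were expressed in every library. Of 8 genes of LXR partners and coregulators, 7 were tested and 0 passed the adjusted threshold. Rxra, the main retinoid X receptor here, had 43.7 FPKM over the 6 libraries, close to the LXRs themselves, and a log2 fold change of 0.08 (SE 0.23). Rxrb was at 18.4 FPKM with a log2 fold change of -0.32 (SE 0.29), and the coactivator Ncoa1 had 0.35 (SE 0.41). Sensitive replicate 2 was the highest library for Rxrb (114 CPM) and the lowest for Ncoa1 (34.4 CPM).

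Other LXR targets were split. Of 15, 10 were tested, of which 5 had a log2 fold change above 0 and 5 below, and 0 passed. Cd5l, which encodes a secreted macrophage protein, had 2631 FPKM and 4709, 8242 and 5498 CPM in the sensitive and 3986, 4346 and 5840 CPM in the resistant replicates 1, 2 and 3. It was highest in sensitive replicate 2, as was Apoe, and its log2 fold change was -0.38 (SE 0.31). Smpdl3a, a phosphodiesterase, had 281.5 FPKM and a log2 fold change of 0.24 (SE 0.29). The desaturases Scd1 and Scd2 had the largest differences of the list, -0.62 (SE 0.78) and -0.50 (SE 0.53), within overlapping groups. Abcg5 and Cyp7a1, which belong to the sterol route of hepatocytes, had 0 counts in every library, which allows up to 3 counts per library.

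The enzymes that make and break oxysterols were mostly scarce. Cyp27a1, which makes 27-hydroxycholesterol, had 16.3 FPKM and a log2 fold change of -0.28 (SE 0.27). Ch25h, which makes 25-hydroxycholesterol, had 0.827 FPKM, with 1.53, 3.37 and 0.685 CPM in the sensitive and 1.13, 0.257 and 0.154 CPM in the resistant replicates. Its log2 fold change of -1.82 (SE 0.94) and that of Cyp7b1, which breaks oxysterols down, of -1.83 (SE 0.81) came from overlapping groups and from a few CPM at most, and neither passed. Of the 7 genes, 5 were tested and 0 passed.

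Uptake receptors had the highest median log2 fold change of these lists, 0.43, against 0.01 for all tested genes. Of the 8, 7 were above 0, where 7855 of all 15474 tested genes were, and 0 passed the adjusted threshold. Scarb1, which exchanges cholesterol with high-density lipoprotein, was higher in every resistant library, with 157, 92.9 and 186 CPM in the sensitive and 217, 238 and 213 CPM in the resistant replicates. Its log2 fold change was 0.62 (SE 0.28, adjusted p = 0.940, edgeR). Scarb1 was the 1 receptor of the 8 whose groups did not overlap, where 4.64% of all tested genes were higher without overlap. Lrp1, an endocytic receptor for apolipoprotein E, had 101.8 FPKM and 0.55 (SE 0.51), with its lowest level, 538 CPM, in sensitive replicate 2. Cd36, a scavenger receptor for modified lipoproteins, had 41.4 CPM in resistant replicate 1 and 539 and 1094 in replicates 2 and 3, so the resistant libraries lay on both sides of the sensitive ones (143 to 273 CPM), and its log2 fold change was 1.37 (SE 0.93).

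Storage and transport genes inside the cell were abundant. Plin2, which coats lipid droplets, had 721 FPKM and Lipa, the lysosomal lipase that frees cholesterol from its esters, 234 FPKM, above all efflux genes but Apoe and, for Lipa, Apoc1. Plin2 had a log2 fold change of -0.45 (SE 0.33) and Lipa of 0.41 (SE 0.31). Npc2, which carries cholesterol out of the lysosome, had a log2 fold change of -0.58 (SE 0.38), and both Npc2 and Plin2 were highest in sensitive replicate 2, with 2208 and 4339 CPM. Osbpl8, a lipid transfer protein, had 0.55 (SE 0.46). Of the 8 genes, all were tested and 0 passed.

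Sterol synthesis genes, which cells lower when cholesterol is plentiful, were scarce beside the efflux genes, with a median FPKM over the 14 genes between 2.95 and 5.38 per library. Of the 13 tested, 11 had a log2 fold change above 0, where 7855 of all 15474 tested genes did. The median of the 13 was 0.26, and 0 passed after adjustment. Dhcr7, which makes the last step to cholesterol, was higher in every resistant library, with 21.9, 14.9 and 23.2 CPM in the sensitive and 30.6, 38.4 and 33.0 CPM in the resistant replicates. Its log2 fold change was 0.76 (SE 0.25, adjusted p = 0.940, edgeR), and it was 1 of 83 genes higher in the resistant group before adjustment. Lss, which closes the sterol rings, was also higher without overlap, with 0.55 (SE 0.38), as was Scap, with 0.32 (SE 0.18). Dhcr7, Lss and Scap were the 3 of the 13 without overlap, where 4.64% of all tested genes were higher without overlap. Srebf2, the regulator of the route, had 10.6 FPKM and 0.10 (SE 0.25), and Insig1, which holds it back, 20.4 FPKM and -0.05 (SE 0.26).

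Genes of plasma lipoproteins were scarce, the highest being Apoa1 (8.77 FPKM), Apoa2 (3.72 FPKM) and Lipg (2.33 FPKM). Apob, the hepatocyte apolipoprotein of low-density particles, had 0.814, 0 and 1.17 CPM in the sensitive and 1.09, 5.03 and 7.38 CPM in the resistant replicates, with a log2 fold change of 2.72 (SE 1.15, adjusted p = 0.940, edgeR). Of 15 hepatocyte markers 13 were tested, and 12 had a log2 fold change above 0 with all libraries. Apoe had -0.68 in that fit and 0.15 without sensitive replicate 2, for which the markers were not counted. Of all 15474 tested genes, 7855 had a log2 fold change above 0 and 7619 below. Lipg, the endothelial lipase, had 37.3, 14.3 and 1.86 CPM in the sensitive and 8.56, 1.54 and 1.28 CPM in the resistant replicates, a log2 fold change of -2.22 (SE 1.13), and 15 of 16 pan-endothelial markers also had one below 0. The part of these cells in the values was not tested.

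On a list of close relatives of the efflux genes, the 12 tested were lower in abundance and 0 passed. Soat2, a relative of Soat1 counted above with the storage genes, is not on it and had 22.7 FPKM, more than Lpcat3 (19.1 FPKM). Abca3, a phospholipid transporter, was the highest of the list with 11.5 FPKM, less than Abca1, and had a log2 fold change of 0.30 (SE 0.39). Lpcat1 had 8.50 FPKM and -0.20 (SE 0.20), and Abca6 0.610 FPKM and -0.79 (SE 0.50). Nr1h4, the bile acid receptor, was at 0.236 FPKM and had 0.86 (SE 1.15).

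**Figure D5:**
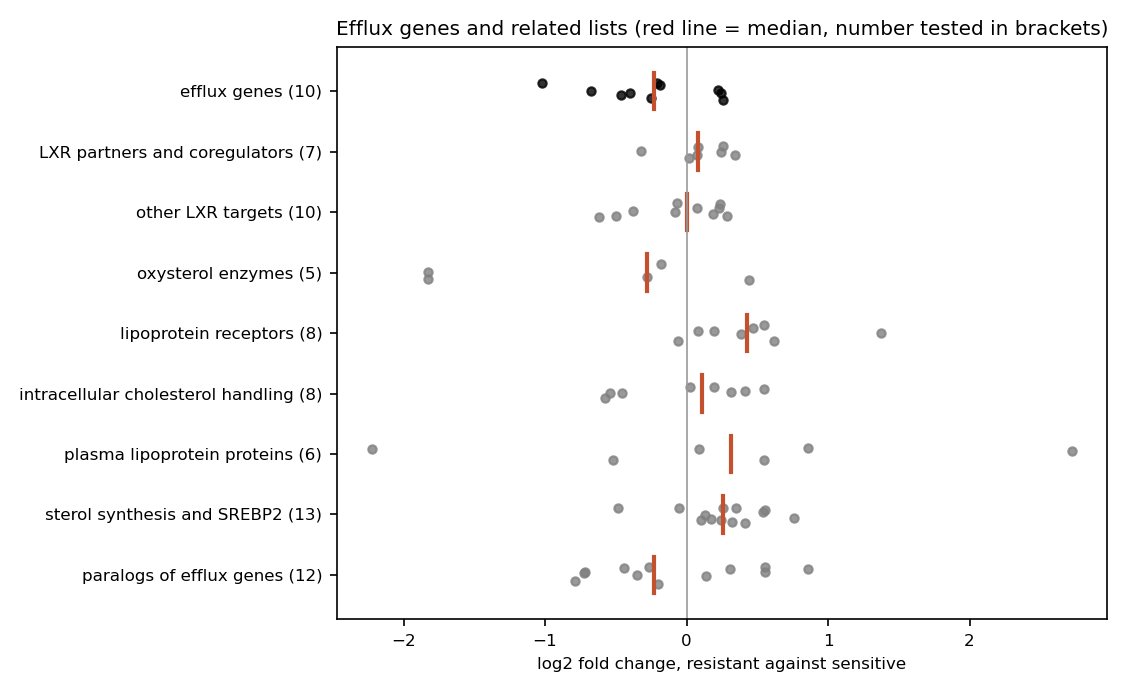
Log2 fold change in the resistant against the sensitive group of the 10 efflux genes (black) and of each tested gene of 8 related lists (grey), with the median of each list as a red line; vertical scatter within a row has no meaning. The efflux genes have a median of -0.23, the lipoprotein receptors 0.43 and the sterol synthesis genes 0.26, and no gene shown passed the adjusted threshold.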

How the data were processed

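RNA was sequenced from 6 LSEC libraries, grouped and numbered from the sample titles. The labels name rRNA depletion and a kit that does not mark strand; the study's methods also mention poly(A) selection. The submitters' processing notes list HISAT2 2.0.5 and featureCounts 1.5.0-p3 with build mm9. The authors deposited unnormalized counts per gene and FPKM values, which are the count over the library's total and a gene length. For 98.57% of 28068 genes that length was within 1% of the exon length of GENCODE M21 (GRCm38), whose coordinates are given; the table has none. A second deposited table, of the authors' own comparison, was not used.

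Counts were filtered with edgeR 4.0.16's filterByExpr in R 4.3.3 (15474 genes), normalized by TMM and tested with the robust quasi-likelihood test, two-sided, with no covariate. Benjamini-Hochberg adjustment was over all tested genes at a threshold of 0.05, and standard errors (SE) were derived from the F statistic. A prior count of 2 was added for log2 CPM. The biological coefficient of variation was 42.2%. No pair of libraries within a group agreed within sampling noise (chi-square per gene of 37.8 or more). Ratios were tested with an exact permutation test. Alternatives were RLE size factors, library totals, scaling to macrophage markers, DESeq2 1.42.0, limma-voom (limma 3.58.1), no robust moderation, other filters, log2(FPKM + 1) and log2(FPKM + 0.1), a threshold of 0.01, a replicate block and leaving out single libraries. Removal of the length trend (lowess span 0.3) and the block for ratios were added after the data were seen.

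The 10 genes and all lists were chosen with earlier results of these data known. Every efflux gene is named. Of each pathway list, but not of the marker lists, the 2 tested genes whose log2 fold change was largest in size are named. The 2 of highest mean FPKM are named as well. Mcam, Pecam1, Cdh5, Stab1, Stab2, Adgre1, Clec4f, Alb, Fasn, Srebf1, Abcg5, Cyp7a1, Soat2 and Scap were chosen after their values were seen.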

Additional observations from a re-analysis of the deposited data

How the results depend on the processing

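Genes past the adjusted threshold numbered 0 in the quasi-likelihood test of edgeR (476 before adjustment), 24 with the Wald test of DESeq2 (732) and 2 with no filter on low counts (2036); the cause was not tested. There were 0 under every other alternative and from 0 to 0 when each library was left out. The number of efflux genes was 0 under all of them. Before adjustment 1 efflux gene, Apoc1, was under 0.05; there were 0 with scaling to macrophage markers and from 0 to 1 when each library was left out, with 0 without sensitive replicate 2, resistant replicate 2 or resistant replicate 3. Of 180 log2 fold changes of efflux genes under the alternatives, 169 had the same direction and call and 11 changed sign. Mylip was 0.011 with limma-voom, 0.071 on log2(FPKM + 1), 0.087 on log2(FPKM + 0.1) and 0.017 with the replicate block, and Abca1 was 0.017 and 0.031 on those FPKM scales. When each library was left out, the ranges were -1.04 to 0.15 for Apoe, -0.80 to 0.15 for Nr1h3, -0.021 to 0.52 for Lpcat3, -0.68 to 0.28 for Abca1 and -0.59 to 0.28 for Mylip. They kept their sign for Apoc1 (-1.25 to -0.62), Abcg1 (-0.38 to -0.055), Nr1h2 (0.14 to 0.32), Pltp (-0.50 to -0.22) and Soat1 (0.12 to 0.38). The log2 difference of the Nr1h3 to Nr1h2 ratio was from -1.10 to 0.0092, the last without sensitive replicate 2, and that of Apoe to Apoc1 from 0.28 to 0.91. With the length trend removed, Apoc1 was -0.74 and Apoe -0.49. Same-numbered libraries were not treated as paired. Their deviations from the group means had correlations of -0.001, 0.034 and 0.194, which with 3 libraries per group cannot settle whether pairs exist. With the replicate block 0 efflux genes passed and 467 genes had an unadjusted p-value under 0.05, with no other change of direction or call. The lowest count of an efflux gene in a library was 508.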
